A study of Rattus norvegicus with 6 samples.

Results

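The endoplasmic reticulum (ER) chaperones and the genes of the unfolded protein response were followed in cultured rat dermal fibroblasts in which a long non-coding RNA, lnc-URIDS, had been targeted. The set was a list of 33 genes drawn from textbook knowledge of the pathway. It was chosen with earlier results of these data known, so its counts are only a description. Its genes were found on the array through the RefSeq accession of each probe. Of the 33 genes, 31 were found, and all 31 passed the filter on dim probes. They are set here among 18464 tested features, of which 10754 are named genes. The 31 genes fell into 13 chaperones and folding factors, 3 genes of ER-associated degradation, 4 stress sensors or sensor-linked factors, and 11 genes of the ATF4 branch. Manf and Edem1 matched no probe. The control group (n = 3) carried a control lentivirus while in the knockdown group (n = 3) the virus delivered a hairpin RNA against lnc-URIDS. Both groups received the virus at a multiplicity of infection of 10, were kept in 2 µg/mL puromycin for 48 h, and grew in low-glucose medium (1000 mg/L) with 10% fetal bovine serum. The source does not say how many hairpins were used or whether each sample was a culture of its own. The p-values therefore measure only how these samples varied, which may be technical variation.

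Fibroblasts secrete large amounts of collagen and other matrix proteins, all of which fold in the ER. When unfolded proteins accumulate there, the sensors IRE1 (Ern1), PERK (Eif2ak3) and ATF6 are released from the chaperone BiP (Hspa5). IRE1 splices the Xbp1 messenger RNA, and the products of Xbp1 and Atf6 raise chaperone and degradation genes. PERK phosphorylates the translation factor eIF2, which slows translation in general but favours that of Atf4. ATF4 then raises genes of amino acid synthesis and, through CHOP (Ddit3), genes linked to cell death. ATF4 is also reached from kinases outside the ER, in what is called the integrated stress response.

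The promoters of the chaperone genes are shown first, because the same short element occurred in genes whose mean signals differed in opposite directions. Only Hspa5 of the genes with this element had a higher mean, and none of them passed at an adjusted p under 0.05 in limma. RefSeq promoter windows of the GRCr8 assembly (250 bases before to 50 bases after the annotated start) were matched for 26 of the 33 members. The ER stress response element ERSE was searched on both strands as CCAAT, 9 bases of any kind and CCACG. It occurred in 7 of the 26 member windows (26.9%) and in 22 of all 33469 windows (0.0657%). The related ERSE-II, ATTGG, 1 base of any kind and CCACG, occurred in 3 member windows (11.5%) and in 0.0508% of all windows. The members were chosen as textbook genes of this response, so the higher shares among them are a description and not a test. Sites of 6 ERSE genes and of the 3 ERSE-II genes are written below in the orientation of the element, with the searched letters in capitals and 6 flanking bases on each side in lower case. Hsp90b1 held 2 ERSE sites and Hyou1 held 2 ERSE-II sites.
Hspa5 ERSE: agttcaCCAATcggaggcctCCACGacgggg
Hsp90b1 ERSE, first site: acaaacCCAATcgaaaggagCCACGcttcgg
Hsp90b1 ERSE, second site: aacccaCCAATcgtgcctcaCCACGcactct
Calr ERSE: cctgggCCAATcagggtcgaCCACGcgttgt
Dnajc3 ERSE: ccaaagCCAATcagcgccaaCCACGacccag
Creld2 ERSE: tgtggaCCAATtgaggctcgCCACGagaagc
Xbp1 ERSE: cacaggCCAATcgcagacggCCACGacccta
Dnajb11 ERSE-II: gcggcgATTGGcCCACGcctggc
Hyou1 ERSE-II, first site: ctgcggATTGGcCCACGtcacgg
Hyou1 ERSE-II, second site: gtccccATTGGgCCACGtagaag
Herpud1 ERSE-II: gcgctgATTGGgCCACGttgggc

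The 250 bases before the start of Hspa5 and of Calr are given whole, since the mean signals of these 2 chaperones differed in opposite directions. Neither gene passed. Capitals mark the whole ERSE and, in Hspa5, also the core TGACGTG of the XBP1 and ATF6 element UPRE, which occurred in 1.81% of all windows and in 2 of the 26 member windows (Hspa5 and Hyou1; in Hyou1 it overlapped the first ERSE-II site). In Hspa5 the ERSE began 43 bases before the start, and in Calr, where it lies on the opposite strand, 232 bases before it. A match of letters is a description of the window and does not show that a factor binds there.
Hspa5, GRCr8 chr3:38452766-38453015, plus strand: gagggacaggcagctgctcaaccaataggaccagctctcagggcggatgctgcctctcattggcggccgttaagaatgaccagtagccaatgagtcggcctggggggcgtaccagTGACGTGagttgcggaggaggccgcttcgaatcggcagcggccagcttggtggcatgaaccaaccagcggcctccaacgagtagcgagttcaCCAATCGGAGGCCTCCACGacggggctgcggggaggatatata
Calr, GRCr8 chr19:40213117-40213366, plus strand: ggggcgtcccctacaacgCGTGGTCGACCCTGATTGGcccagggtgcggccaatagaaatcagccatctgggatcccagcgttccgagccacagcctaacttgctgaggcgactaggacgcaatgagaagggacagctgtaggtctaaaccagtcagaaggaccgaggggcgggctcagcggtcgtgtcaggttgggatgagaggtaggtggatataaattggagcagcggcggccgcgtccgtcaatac

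For the ATF4 branch the core of the C/EBP-ATF response element (CARE), TGATG, 1 base of any kind and AA, was searched on both strands. It occurred in 4 of the 26 member windows (15.4%) and in 3.98% of all windows. Here too the members were chosen as textbook genes of the pathway, so the share is only a description. The 4 sites are given with the core in capitals, apart from its free base, and 6 flanking bases on each side.
Nupr1 CARE: cctgtcTGATGcAAtctggc
Chac1 CARE: caggagTGATGcAAcggcgg
Trib3 CARE: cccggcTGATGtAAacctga
Herpud1 CARE: gcgggcTGATGcAAcccgcc

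Each sample had 1 one-colour array. Between 20901 and 22492 of its 30367 gene probes were well above background. Signals are given as log2 of the processed intensity minus the array's 75th percentile, so that a value of 0 is the 75th percentile of that array. Levels of different genes are not compared, since each is read by its own probe. Control 2 stood somewhat apart: the SD of its log2 differences from the other arrays was 0.287 to 0.364, against 0.228 to 0.321 among the other 5 arrays. The labels name no slide, so slides were inferred from the scan identifiers in the file headers. By these, control 3 and knockdown 1 shared a slide and the other 4 arrays lay on another. Of 17 fibroblast markers on the array, 15 were well above background on all 6 arrays, while Dcn and Lum were so on none. Markers of other cell types were present in part. Of 8 leukocyte markers, 5 (Cd68, Cd14, Csf1r, Lyz2 and Aif1) were well above background on all 6 arrays and Ptprc, Cd3e and Itgam on none. Cdh5 and Kdr of 7 endothelial markers, Krt5, Krt14 and Krt15 of 7 keratinocyte markers, 5 of 7 skeletal muscle markers and 3 of 5 melanocyte and Schwann cell markers were so on all 6 arrays, while Pecam1, Epcam and all 4 adipocyte markers were so on none. Of 8 mural cell markers, 7 were well above background on all 6 arrays, and their summed level (linear, relative to the 75th percentile) was 8.93 to 9.40 in the controls and 9.87 to 11.9 in the knockdown arrays, against 537 to 577 and 548 to 558 for the fibroblast markers. On the same scale the leukocyte sum was 0.906 to 1.09 in the controls and 0.908 to 0.951 in the knockdown arrays. For skeletal muscle markers it was 0.433 to 0.490 and 0.442 to 0.503. Endothelial markers had 0.183 to 0.230 and 0.200 to 0.234, and keratinocyte markers 0.151 to 0.186 and 0.171 to 0.230. Melanocyte and Schwann cell markers had 0.101 to 0.109 and 0.102 to 0.109. The part of any of these markers in the results below was not tested. No probe was named for lnc-URIDS, so its level was not checked here. In bulk RNA, fewer cells of a type and less RNA per cell cannot be told apart.

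At an adjusted p under 0.05 in limma, none of the 31 genes passed, where 0 of all features passed (0.00%). The smallest adjusted p among them was 0.197, for Phgdh. In the knockdown 21 genes had lower and 10 had higher means, with a median log2 fold change (knockdown minus control) of -0.05, beside -0.01 over all features. At an unadjusted p under 0.05 there were 7 genes, 5 lower (Calr, Dnajb9, Sdf2l1, Hsp90b1 and Sel1l) and 2 higher (Hspa5 and Phgdh). That is 22.6% of the 31, against 14.1% of all features (8.24% lower and 5.90% higher). The count was 12 (7 lower and 5 higher) without control 1, 14 (9 lower and 5 higher) with arrays weighted by quality, and 5 to 7 with any other array left out. The split depended on the scaling: with arrays centred on the median of the tested features, 3 of the 7 genes then under 0.05 were lower and 4 higher, while over all features 1090 higher and 1521 lower became 1576 higher and 1099 lower. The plot of fold changes shows the 4 groups of members with their intervals.

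**Figure D1:**
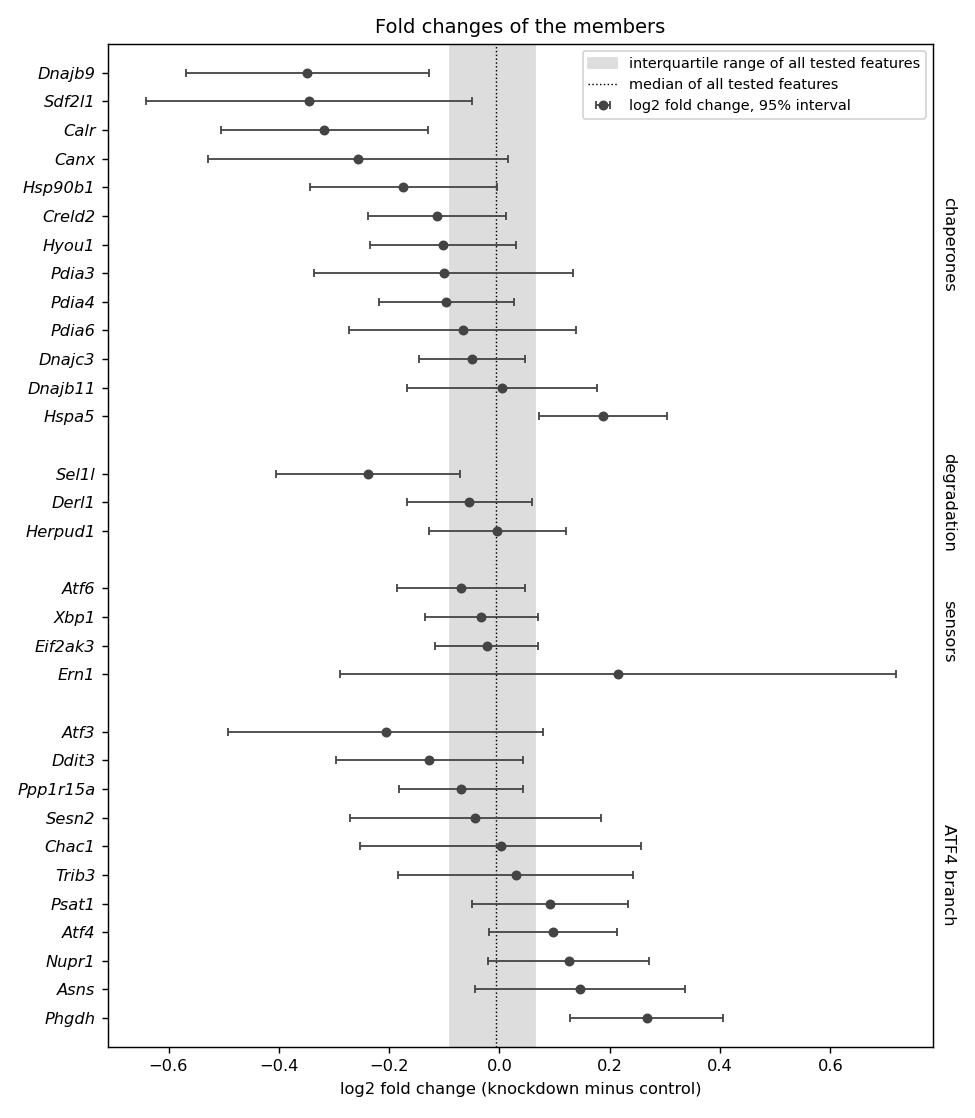
Log2 fold changes (knockdown minus control, x axis) of the 31 measured genes, ordered within each group of members; points are limma estimates (n = 3 arrays per group), bars are 95% confidence intervals, the grey band is the interquartile range of all 18464 tested features and the dotted line is their median. In the chaperones 11 genes lie left of 0, Hspa5 and Phgdh lie to the right with intervals that leave out 0, and the widest interval is that of Ern1.

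Among the 13 chaperones and folding factors, 11 had lower and 2 had higher means in the knockdown, and the median log2 fold change was -0.10. In 8 of the 13 (61.5%) every knockdown array lay below every control array, against 11.9% of all features. These 8 were Calr, Creld2, Dnajb9, Dnajc3, Hsp90b1, Hyou1, Pdia4 and Sdf2l1. Some of them were apart by small margins. The lowest control and the highest knockdown signal were 2.454 and 2.453 for Hyou1, and 2.146 and 2.128 for Pdia4. They were 0.367 and 0.346 for Dnajc3, and -0.241 and -0.272 for Creld2. One, Hspa5, had every knockdown array above every control array, as did 9.93% of all features. With quantile normalization 6 chaperones were lower without overlap, against 10.3% of all features. A normexp background correction also gave 6, against 6.84% of all features, and Hspa5 then overlapped. Centring on the median gave 3 (Calr, Dnajb9 and Sdf2l1), against 8.75% of all features. Over all features, 2196 lower and 1834 higher without overlap became 1615 lower and 2479 higher with that centring. Leaving out control 2 cannot make separate groups overlap, so the same 8 genes remained by necessity. The share of all features was then 17.7%.

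Hspa5 encodes BiP, the HSP70 of the ER lumen and the partner of the stress sensors. Its log2 signal was 5.28, 5.16 and 5.202 on control arrays 1, 2 and 3, and 5.41, 5.41 and 5.39 on knockdown arrays 1, 2 and 3. All 3 knockdown values lay above the controls, and the knockdown arrays were closely spaced. The log2 fold change was 0.19 ± 0.05 (SE, n = 3 and 3; limma adjusted p = 0.210), a fold of 1.14 with a 95% interval from 1.05 to 1.23.

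Hsp90b1 encodes the HSP90 of the ER, which finishes the folding of selected secreted and membrane proteins. Its log2 signal was 4.36, 4.59 and 4.45 in the controls and 4.26, 4.32 and 4.29 in the knockdown arrays. The knockdown values lay below the controls, with control 2 the highest. The log2 fold change was -0.17 ± 0.07 (SE, n = 3 and 3; limma adjusted p = 0.342), and -0.11 without control 2.

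Calreticulin (Calr) and calnexin (Canx) are the lectin chaperones that hold newly made glycoproteins, the first in the lumen and the second in the membrane. Calr signal was 2.98, 2.998 and 2.91 in the controls and 2.76, 2.502 and 2.68 in the knockdown arrays, with no overlap. Its log2 fold change was -0.32 ± 0.08 (SE, n = 3 and 3; limma adjusted p = 0.205), a fold of 0.802 with a 95% interval from 0.705 to 0.914. Canx signal was -0.79, -0.52 and -0.63 in the controls and -0.72, -1.06 and -0.92 in the knockdown arrays. Knockdown 1 lay within the range of the controls and the other 2 knockdown arrays below it, which gave a log2 fold change of -0.26 ± 0.11 (adjusted p = 0.378).

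Pdia3 works with both lectins as their disulfide isomerase. Its log2 fold change was -0.10 ± 0.09 (SE, n = 3 and 3), with overlapping groups. The other disulfide isomerases of the list, Pdia4 and Pdia6, had -0.10 ± 0.05 and -0.07 ± 0.08. The intervals reached from -0.34 to 0.13 for Pdia3, from -0.22 to 0.03 for Pdia4 and from -0.27 to 0.14 for Pdia6.

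The J-domain proteins that drive the BiP cycle had unlike values. Dnajb9, which recognises misfolded proteins and binds IRE1, had one of the lowest log2 fold changes of the list, close to that of Sdf2l1. Its log2 signal was -0.91, -0.66 and -0.81 in the controls and -1.04, -1.27 and -1.12 in the knockdown arrays. All 3 knockdown arrays lay below the controls, for a log2 fold change of -0.35 ± 0.09 (SE, n = 3 and 3; limma adjusted p = 0.215), a fold of 0.785. Dnajb11, the J-domain protein that hands nascent chains to BiP, had 0.01 ± 0.07, and Dnajc3, a co-chaperone first known as an inhibitor of eIF2 kinases, had -0.05 ± 0.04.

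Sdf2l1, which forms a complex with Dnajb11, was read by 2 probes. On the brighter probe its log2 signal was 0.78, 1.23 and 1.003 in the controls and 0.57, 0.72 and 0.69 in the knockdown arrays. The knockdown arrays lay below the controls, which themselves were widely spaced (SD 0.222). The log2 fold change was -0.35 ± 0.12 (SE, n = 3 and 3; limma adjusted p = 0.298), and the second probe gave -0.35 ± 0.13. Hyou1, the exchange factor of BiP, had -0.10 ± 0.05, and Creld2, a secreted ER stress protein, had -0.11 ± 0.05.

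**Figure D2:**
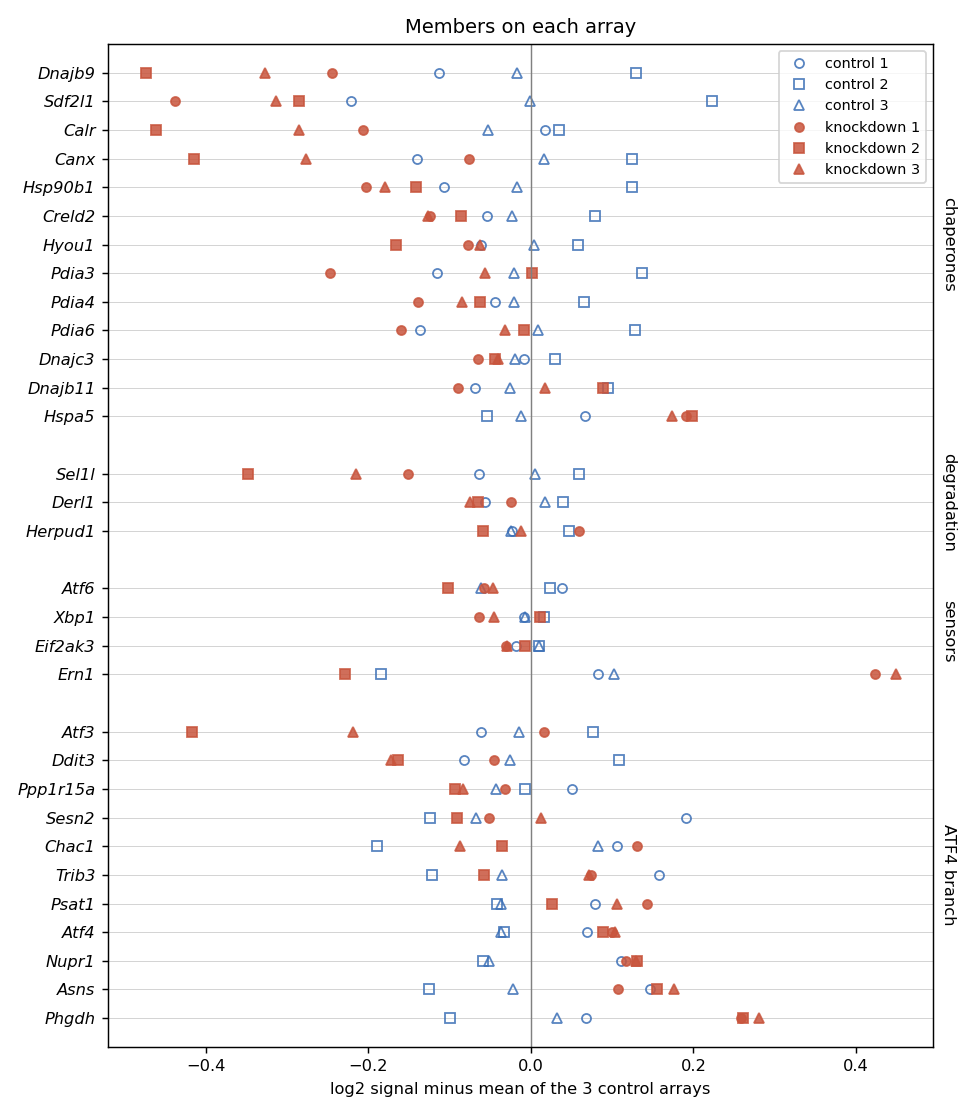
Log2 signal of each of the 31 genes on the 6 arrays, minus the mean of the 3 control arrays (x axis); open blue symbols are controls, filled red symbols are knockdown arrays, and the symbol shape gives the replicate number. The open square of control 2 is the rightmost symbol in 12 of the 13 chaperone rows, and the 3 knockdown symbols of Hspa5 and of Phgdh lie close together to the right of the controls.

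Much of the spread of the chaperones lay within the controls. Control 2 had the highest signal of all 6 arrays in 12 of the 13 chaperones, and in Hspa5 it had the lowest. Relative to each gene's mean over the 6 arrays, the median chaperone deviation was -0.01, 0.16 and 0.04 on control arrays 1 to 3, and -0.07, -0.03 and -0.04 on knockdown arrays 1 to 3. Control 1 thus lay nearer to the knockdown arrays than to control 2. Without control 2 the chaperone median log2 fold change was -0.07, and 11 of 13 still had lower means. What set control 2 apart was not tested.

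**Figure D3:**
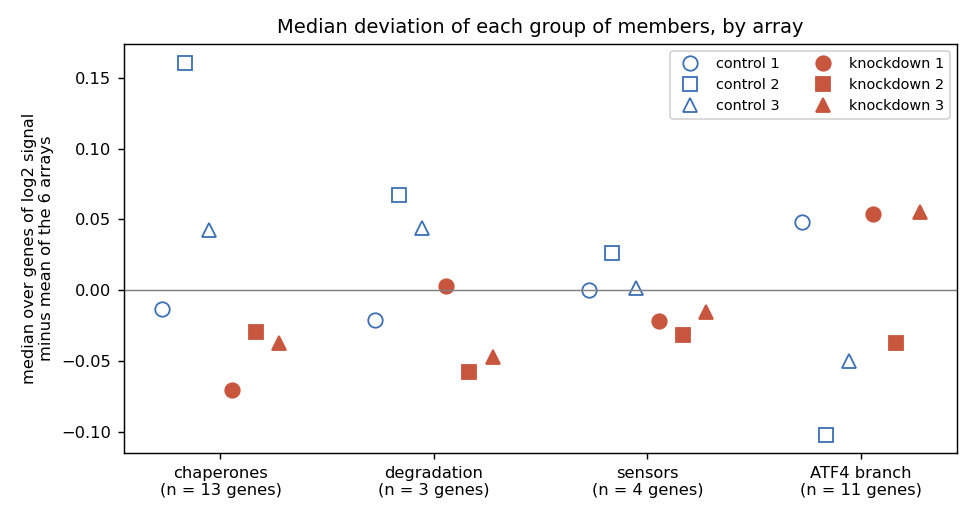
Median over the genes of each group of members of the log2 signal minus the gene's mean over the 6 arrays (y axis), for each array; open blue symbols are controls and filled red symbols knockdown arrays. In the chaperones control 2 is at 0.16, and the 3 knockdown arrays lie between -0.07 and -0.03; in the ATF4 branch control 2 is the lowest at -0.10 and the groups overlap.

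Hspa5 and its partner chaperones could also be compared on each array, where no scaling between arrays enters. These 3 pairs of genes were chosen after their values were seen. The difference of log2 signals itself has no meaning, as it sets 1 probe against another, but its shift between groups does. Hspa5 minus Calr was 2.25 ± 0.08 (SD, n = 3) in the controls and 2.76 ± 0.14 (SD, n = 3) in the knockdown arrays, a shift of 0.51 with no overlap. Hspa5 minus Hsp90b1 was 0.92, 0.57 and 0.75 in the controls and 1.14, 1.09 and 1.103 in the knockdown arrays, a shift of 0.36. Phgdh minus Ddit3, from the ATF4 branch, shifted by 0.39. In each pair all knockdown arrays lay above all control arrays. For the pairs with Hspa5 this follows from the values of the single genes given above, so the shifts are a description and no test is given.

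**Figure D4:**
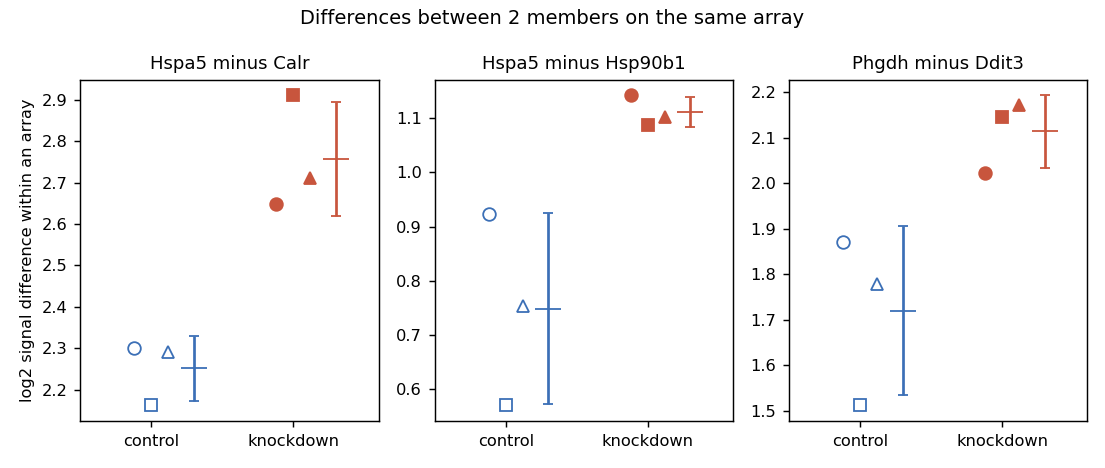
Difference in log2 signal between 2 genes on the same array (y axis, its own range in each panel) for Hspa5 minus Calr, Hspa5 minus Hsp90b1 and Phgdh minus Ddit3; symbols are single arrays (circle, square and triangle for replicates 1, 2 and 3), the horizontal marks are group means and the bars are SD (n = 3). The knockdown arrays lie above the control arrays in each panel.

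Of the 7 genes with an ERSE in the promoter window, 6 had lower means in the knockdown (among them Calr, Hsp90b1, Creld2, Dnajc3 and Xbp1) and 1, Hspa5, had a higher mean. Their log2 fold changes ran from -0.32 to 0.19, with a median of -0.11. The 3 genes with an ERSE-II (Hyou1, Dnajb11 and Herpud1) ran from -0.10 to 0.01. The 15 measured members whose window held neither had 8 lower and 7 higher means, with a median of -0.02. Over all features 52.8% had lower means. Most of these 15 members were genes of the ATF4 branch, while the ERSE genes were chaperones apart from Xbp1. The contrast by element is thus also one between groups of members. The measured chaperone and degradation genes with neither element in the windows searched were Dnajb9, Sdf2l1, Sel1l and Pdia4. Their means were also lower, with log2 fold changes of -0.35, -0.35, -0.24 and -0.10. The part of the element in these fold changes was not tested.

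In ER-associated degradation, all 3 measured genes had lower means in the knockdown (median -0.05). Sel1l is the adaptor that links misfolded proteins to the ubiquitin ligase of the ER membrane. Its log2 signal was -0.70, -0.58 and -0.63 in the controls and -0.79, -0.99 and -0.85 in the knockdown arrays, with no overlap. The log2 fold change was -0.24 ± 0.07 (SE, n = 3 and 3; limma adjusted p = 0.233), and a second probe gave -0.31 ± 0.08. Derl1, a channel protein of the exit route, had -0.05 ± 0.05, and Herpud1, which brings the degradation complex together, had -0.0039 ± 0.05 with an interval from -0.13 to 0.12.

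The 4 sensor genes had 3 lower and 1 higher means (median -0.03), and in none were the groups without overlap on the brightest probe. Xbp1 signal was 2.81, 2.83 and 2.81 in the controls and 2.75, 2.83 and 2.77 in the knockdown arrays, and the ranges overlapped. Its log2 fold change was -0.03 ± 0.04 (SE, n = 3 and 3; limma adjusted p = 0.814), with an interval from -0.14 to 0.07. The array signal of Xbp1 does not tell its spliced from its unspliced form. Eif2ak3, which encodes PERK, had -0.02 ± 0.04, with an interval from -0.12 to 0.07. Atf6 had -0.07 ± 0.05 on its brighter probe and -0.18 ± 0.05 on the second. With its probes averaged it had -0.13 ± 0.05 (limma adjusted p = 0.343). Ern1, which encodes IRE1, was dim. It passed the background test on 3 of 3 knockdown arrays but on 2 of 3 controls, so it was tested only through the knockdown group. With a filter on all 6 arrays Ern1 dropped out, which left 9 higher and 21 lower means among 30 members. The log2 signal of Ern1 was -6.46, -6.73 and -6.44 in the controls and -6.12, -6.77 and -6.09 in the knockdown arrays. Its log2 fold change of 0.21 ± 0.20 has an interval from -0.29 to 0.72. It rested on single arrays: it was 0.44 ± 0.11 without knockdown 2 (limma adjusted p = 0.495), 0.11 without knockdown 1, 0.10 without knockdown 3 and 0.12 without control 2.

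The ATF4 branch had 7 higher and 4 lower means, with a median log2 fold change of 0.03. In 3 of the 11 genes (Atf4, Nupr1 and Phgdh) all knockdown arrays lay above all controls, and in none did they lie below. That compares with 9.93% of all features higher and 11.9% lower without overlap, or 13.4% and 8.75% with centring on the median, under which the same 3 genes did not overlap. For Nupr1 the margin was very small, with control 1 at 2.920 and knockdown 1, the lowest knockdown array, at 2.925. Atf4, the transcription factor of the branch, had a log2 signal of 4.33, 4.23 and 4.22 in the controls and 4.36, 4.35 and 4.36 in the knockdown arrays. The knockdown arrays were higher by a small margin over control 1, for a log2 fold change of 0.10 ± 0.05 (SE, n = 3 and 3; limma adjusted p = 0.421). ATF4 is controlled largely in translation, which these arrays do not measure. The median of the branch depended on single controls: it was 0.11 without control 1 and -0.03 without control 2. With a normexp background correction only Phgdh remained without overlap, beside 10.1% of all features higher without overlap.

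Phgdh, Psat1 and Asns are targets of ATF4 in amino acid synthesis. Phgdh, which starts serine synthesis, had the smallest p of the 31 genes. Its log2 signal was 3.83, 3.66 and 3.80 in the controls and 4.02, 4.03 and 4.04 in the knockdown arrays, with no overlap and a knockdown SD of 0.012. The log2 fold change was 0.27 ± 0.06 (SE, n = 3 and 3; limma adjusted p = 0.197), a fold of 1.20 with a 95% interval from 1.09 to 1.32. Psat1, the next enzyme, had 0.09 ± 0.06, with overlapping groups. Psph, the last enzyme of serine synthesis and not one of the 33 genes, had 0.53, 0.60 and 0.65 in the controls and 0.78, 0.75 and 0.75 in the knockdown arrays, a log2 fold change of 0.17 ± 0.05 (adjusted p = 0.233). Asns, the asparagine synthetase gene, had 0.15 ± 0.08, with control 1 inside the range of the knockdown arrays. It was 0.08 without control 2.

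The genes of the branch that are linked to arrest, death or recovery had values on both sides of 0. Ddit3, which encodes CHOP, had a log2 signal of 1.96, 2.15 and 2.02 in the controls and 2.00, 1.88 and 1.87 in the knockdown arrays. The groups overlapped through knockdown 1, and the log2 fold change was -0.13 ± 0.07 (SE, n = 3 and 3; limma adjusted p = 0.469). Atf3, a stress-induced repressor, had -0.21 ± 0.12, with knockdown 1 among the controls and knockdown 2 the lowest. It was -0.10 without knockdown 2 and -0.32 without knockdown 1. Ppp1r15a, the phosphatase subunit that reverses eIF2 phosphorylation, had -0.07 ± 0.05. Trib3, the pseudokinase that CHOP and ATF4 induce, had 0.03 ± 0.09, and Chac1, which breaks down glutathione, had 0.00 ± 0.10. Sesn2, an inhibitor of mTORC1 signalling, had -0.04 ± 0.09, and Nupr1, a stress-induced chromatin protein, had 0.13 ± 0.06. With intervals of -0.18 to 0.24 for Trib3, -0.25 to 0.26 for Chac1 and -0.27 to 0.18 for Sesn2, changes of that size in either direction are within the error.

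Both groups were spread evenly over the slides inferred from scan identifiers, and a slide block leaves each fold change as it was. With that block none of the 31 genes passed, and Calr had an adjusted p of 0.231, Hspa5 one of 0.241 and Phgdh one of 0.223. Within slide 1 (2 arrays per group) and slide 2 (1 array per group, with no test), Hspa5 had log2 fold changes of 0.18 and 0.20, and Phgdh had 0.29 and 0.23. Hsp90b1 had -0.17 and -0.19, and Sdf2l1 had -0.30 and -0.44. Calr, Dnajb9 and Sel1l had -0.40, -0.41 and -0.28 within slide 1 and -0.15, -0.23 and -0.16 within slide 2. The groups of these 7 genes did not overlap, so the same direction on both slides followed from that and adds no support. The adjusted p of Phgdh ran from 0.0467 to 0.596 over all alternatives, that of Hspa5 from 0.0502 to 0.689, that of Calr from 0.0649 to 0.595 and that of Dnajb9 from 0.0525 to 0.598. Phgdh passed in 1 alternative, with arrays weighted by their quality, and the other 30 genes in none.

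Other genes of the secretory and stress pathways were counted in 8 lists drawn from textbook knowledge, also with earlier results of these data known. None of their genes passed at an adjusted p under 0.05. Over all features, 52.8% had lower means and 47.2% higher, with 8.24% lower and 5.90% higher at an unadjusted p under 0.05. With centring on the median, 43.2% of all features had lower means. For each list the 2 genes with the smallest p are named, with log2 fold changes ± SE (n = 3 per group). Of 20 other degradation genes, 16 (80.0%) had lower means (median -0.08), and 15 with centring on the median (median -0.05). At an unadjusted p under 0.05 there were 3 lower (15.0%) and 0 higher. The mannosidase-like Edem3 and Edem2, which mark misfolded glycoproteins for removal, had -0.38 ± 0.08 and -0.21 ± 0.04. For both, no knockdown array reached the controls, as with Sel1l. Of 31 genes of protein translocation and glycosylation, 20 (64.5%) had lower and 11 higher means (median -0.03), and 16 and 15 with centring. Under 0.05 there were 5 lower (16.1%) and 1 higher. Sec61a1, the channel through which chains enter the ER, had -0.21 ± 0.04, and Ddost, a subunit of the oligosaccharyltransferase, had -0.21 ± 0.06. Of 26 genes of COPII export and retrieval, 18 (69.2%) had lower means (median -0.02), but 13 with centring. Under 0.05 there were 3 lower (11.5%, near the share of all features) and 0 higher. Preb, the exchange factor that starts the COPII coat, had -0.19 ± 0.04, and Mcfd2, of a cargo receptor, had -0.38 ± 0.10.

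Of 26 other folding enzymes, 14 had lower and 12 higher means (median -0.01), turned to 12 and 14 with centring, and 3 were under 0.05 in each direction. Mesd, a chaperone of LDL receptor family proteins, had 0.26 ± 0.05, and Mogs, which trims the first glucose from glycans, had 0.31 ± 0.08. Of 25 other sensors and eIF2 regulators, 14 had lower means (median 0.00), and 10 with centring. Bax and Nfyc, a subunit of the factor that binds CCAAT, had 0.14 ± 0.05 and -0.16 ± 0.06. Of 38 other targets of ATF4 and CHOP, 23 (60.5%) had higher means (median 0.03), and 26 with centring. There were 3 higher (7.89%, near the share of all features) and 0 lower under 0.05, with Psph first and Eif4ebp1, an inhibitor of translation, at 0.12 ± 0.05. Of the 38, 5 were higher and 6 lower without overlap, beside 9.93% and 11.9% of all features. Of 18 cytosolic heat shock genes, 12 (66.7%) had higher means (median 0.05), and 13 with centring. There were 3 higher (16.7%) and 0 lower under 0.05. Hspa4l had 0.44 ± 0.12 and Hspa1l 0.25 ± 0.07, and a probe of 1 HSP70 gene can also read a close relative. Of 7 mitochondrial chaperones, 6 had higher means (median 0.03), also with centring, and 0 were under 0.05. Hspe1 had 0.11 ± 0.05 and Lonp1 0.18 ± 0.09.

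**Figure D5:**
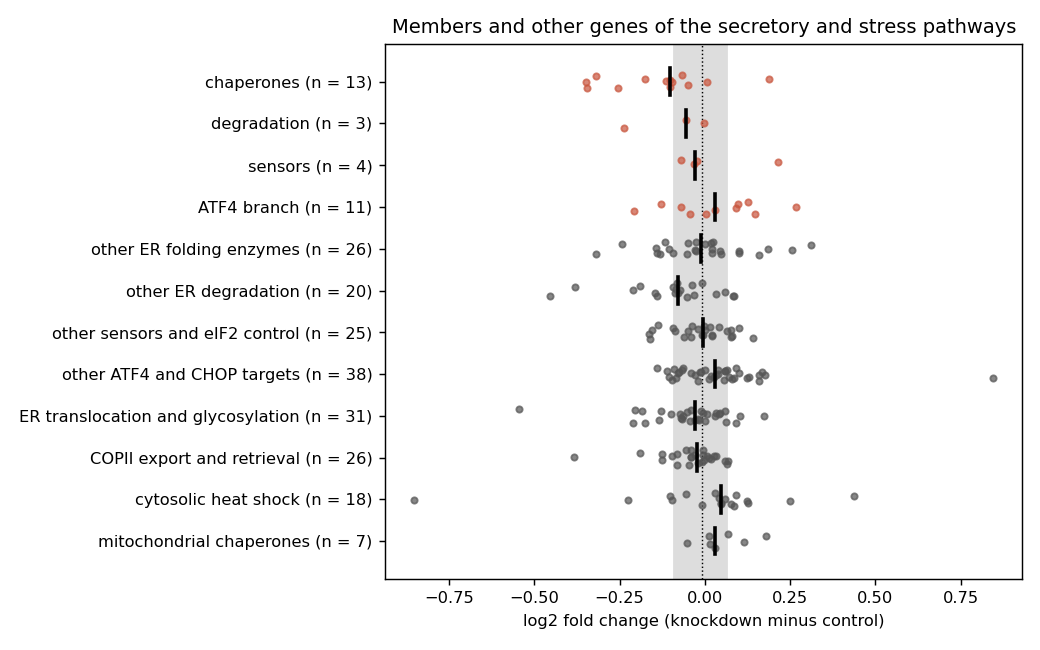
Log2 fold changes (knockdown minus control, x axis) of the 4 groups of members (red) and of 8 lists of other pathway genes (grey); each point is a gene, the black bar is the list's median, the grey band is the interquartile range of all tested features and the dotted line their median. The chaperone median is at -0.10 and that of the other degradation genes at -0.08, while the cytosolic heat shock median is at 0.05.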

How the data were processed

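Total RNA of 6 samples was labelled with Cy3 and hybridised to 1 one-colour Agilent array each, per the labels' protocols. The authors deposited scanner output, in which spot intensity is linear, background-subtracted and spatially detrended by Agilent Feature Extraction (11.0.1.1 per the file headers and column names; the submitters' processing notes give 11.0.0.1). The arrays were not normalized to each other. Control and outlier spots (386 to 513 gene spots per array) were left out, and 0 spots were saturated. The log2 signal minus the array's 75th percentile was averaged per probe. Probes well above background on all 3 arrays of a group were tested (20776), named through RefSeq accessions with a GRCr8 table (18005 of 30367 probes matched), and the brightest probe stood for a gene. Groups, taken from sample titles, were compared with limma 3.58.1 (R 4.3.3; lmFit, eBayes, no block) over 18464 features with Benjamini-Hochberg adjustment at 0.05. The fit was tested on simulated data. Slide was inferred from shared scan identifiers in the file headers, as the labels do not give it.

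The members and lists were chosen with earlier results of these data known, so no list test was run. The sequence of 1 promoter site is not reported here. Named were all members, and in each other list the 2 genes of smallest p. Values per array were given for members at an unadjusted p under 0.05 and for Hspa5, Hsp90b1, Calr, Xbp1, Atf4 and Ddit3. Those of Canx, Ern1 and Psph were added after values were seen. So were the margins of Hyou1, Pdia4, Dnajc3, Creld2 and Nupr1. The alternatives were arrays centred on their median, quantile normalization, normexp (offset 50, on the median spot and background intensity, in place of a mean spot intensity, which was not used here), no probe filter, probes above background on all 6 arrays, averaged probes, array weights (gene-by-gene method), slide and replicate blocks, and leaving out each array. Fits within each slide, and counts of non-overlapping genes under other scalings and without control 2, and the directions in the other lists with centring, were added after seeing the data.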

Additional observations from a re-analysis of the deposited data

How the results depend on the processing

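Over 17 alternatives (16 for Ern1), 22 of the 31 genes kept the sign of their fold change. The median log2 fold change of the 31 genes was -0.029 with centring on the median, and that of the sensors -0.0020 with centring and -0.041 with normexp; leaving out 1 array gave the sensors -0.042 to -0.018. The ATF4 branch median was -0.032 to 0.11 with 1 array left out and 0.11 within slide 2. Chaperones lower without overlap numbered 3 with centring, beside 8.75% of all features. ATF4 genes higher without overlap numbered 1 with normexp, beside 10.1% of all features. Features that passed numbered 1 with centring, 767 with array weights (1 member, Phgdh), 6 within slide 1, and 0 to 3 with 1 array left out; 0 passed with slide as a block.

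These signs turned. With centring, Herpud1 had 0.022 and Eif2ak3 0.0031. With normexp, Dnajb11 had -0.012, Herpud1 0.0072, Trib3 -0.0037, Chac1 -0.0036 and Sesn2 0.034. With array weights, Chac1 had -0.10 and Sesn2 0.012. Within slide 1, Trib3 had -0.011 and Chac1 -0.020. Within slide 2, Dnajb11 had -0.063, Herpud1 0.084, Atf6 0.0035, Atf3 0.032, Sesn2 0.016 and Ppp1r15a 0.010. With 1 array left out, Dnajb11 ran from -0.036 to 0.053, Herpud1 from -0.036 to 0.024, Trib3 from -0.032 to 0.11, Chac1 from -0.092 to 0.055 and Sesn2 from -0.11 to 0.052. The cause of these changes was not tested.

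With the replicate number as a block, 0 features and 0 of the 31 genes passed, and 2275 features were under an unadjusted p of 0.05 (2611 without it). Deviations of same-numbered arrays correlated at 0.097, 0.26 and -0.29, so the numbers were not taken as pairs. Precision is limited by 3 arrays per group, and for Ern1 by a signal near background.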
